A study of Mus musculus with 12 samples.

Results

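Tsc22d3, Ddit4, Sgk1, Fkbp5, Fbxo32, Pik3ip1 and Zbtb16 are 7 genes known as targets of the glucocorticoid receptor, of FoxO transcription factors or of both, and their RNA was followed here in mouse peritoneal exudate cells, the mixed cells washed out of the abdominal cavity. The rule took every probe, controls excepted, whose gene name in the array files was a member. That gave 8 probes of 4 genes (Tsc22d3, Ddit4, Fkbp5 and Fbxo32). A further 4 probes were added through their accession or an older symbol, since the files list Sgk1 as Sgk and Pik3ip1 as 1500004A08Rik. Together these were 12 of the 41174 probes on the arrays. No probe was matched to Zbtb16, which was not analysed here. One Sgk1 probe (A_52_P352246) was not well above background on any array and was not tested. The other 11 probes, of 6 genes, were well above background on all 12 arrays, so none passed the filter on dim probes through a single group, and they stood among 27718 probes of 18276 genes that were tested.

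The mice were female, 8 weeks old and of the strain 129S2/SvPas*BALB/c in all groups. There were 4 groups of 3 arrays, each array from a different mouse: Ifnar2-/- mice given interferon beta (IFN-β), Ifnar2-/- mice given phosphate-buffered saline (PBS), wild-type mice given IFN-β and wild-type mice given PBS. Injections went into the peritoneal cavity, IFN-β was stated as 10000 IU/ml with no volume, and cells were lysed 3 h later. Ifnar2 encodes a chain of the receptor through which type I interferons signal, and the question for each member was whether a fall after IFN-β was seen in both genotypes or needed Ifnar2. All groups were injected.

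Glucocorticoids bind the glucocorticoid receptor (gene Nr3c1), which then enters the nucleus and raises transcription of genes such as Tsc22d3 and Fkbp5. FoxO factors act in the nucleus when signalling through PI3K and the kinase Akt is low, and raise genes of growth arrest and protein breakdown. Akt, and also Sgk1, phosphorylate FoxO factors and thereby hold them in the cytoplasm. In macrophages and lymphocytes the products of several members restrain inflammatory signalling or growth, and in these bulk samples fewer cells of a type and less RNA per cell cannot be told apart.

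A level is given on the log2 scale relative to the 75th percentile of its own array's signals, so a level of 0 is the signal at that percentile. Tests are limma's moderated tests over all 27718 probes, and a gene is called at a Benjamini-Hochberg adjusted p under 0.05. A gene with several probes is represented by the brightest. Signals of different probes were not set against each other. Within groups, pairs of arrays had Pearson r of 0.973 to 0.993 across probes, which are not independent replicates. The 4 Ifnar2-/- arrays numbered 2 and 3 lay on slide 3, which held no other array, and had 59.4% to 62.5% of spots well above background and 23 to 29 saturated spots, against 65.2% to 71.6% and 1 to 4 on slides 1 and 2. No member probe was saturated on any array. The 3 wild-type PBS arrays lay on slide 1, and the Ifnar2-/- PBS arrays lay on slides 2 and 3. Differences between genotypes after PBS are therefore also differences between slides. With slide as a fixed block, calls in that comparison went from 1253 to 57 probes. Wild-type IFN-β array 1 lay on slide 1 and arrays 2 and 3 on slide 2. The wild-type response, and with it the difference between responses, is thus in part also a difference between slides. With the same block, calls for the wild-type response went from 11085 to 6861 probes. Of the 2 Ifnar2 probes, A_52_P190405 was lower in Ifnar2-/- than in wild-type cells after PBS (2.79 ± 0.14 against 4.64 ± 0.23, SD, n = 3 each, adjusted p = 5.68e-05), while A_51_P338924 was higher (2.59 ± 0.10 against 1.64 ± 0.07, adjusted p = 0.0152). All 10 large peritoneal macrophage markers with a probe, Gata6, Timd4 and Icam2 among them, were well above background on every array, as were 12 of 12 B cell markers.

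One promoter each of Sgk1 and Tsc22d3 is shown because these known glucocorticoid targets moved in opposite directions in wild type, and the windows are those of each gene with the most motif matches. RefSeq windows on GRCm38.p6, from 250 bases before to 50 after a start site, were found for 5 members (12 windows: 6 of Sgk1, 3 of Tsc22d3 and 1 each of Ddit4, Fkbp5 and Pik3ip1). The bases before the start are printed 5′ to 3′ on the gene's strand, with motif matches in capitals. The motifs were the receptor hexamer TGTTCT, searched on both strands, and the full receptor element, which has that hexamer on each strand with 3 bases between, so that a full element also holds 2 hexamers.
Sgk1, chr10:21993640-21993889, plus strand: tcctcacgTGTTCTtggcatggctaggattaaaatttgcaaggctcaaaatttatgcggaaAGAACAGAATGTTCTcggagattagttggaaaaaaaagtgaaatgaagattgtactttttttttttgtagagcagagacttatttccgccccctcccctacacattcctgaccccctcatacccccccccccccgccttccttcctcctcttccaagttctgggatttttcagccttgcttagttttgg
Tsc22d3, chrX:140600523-140600772, minus strand: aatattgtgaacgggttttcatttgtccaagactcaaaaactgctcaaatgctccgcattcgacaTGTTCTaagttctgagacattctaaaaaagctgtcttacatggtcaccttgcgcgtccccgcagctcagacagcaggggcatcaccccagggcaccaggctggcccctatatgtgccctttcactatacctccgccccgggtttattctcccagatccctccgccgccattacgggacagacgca

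Counted from the start site, the full element of the Sgk1 window begins at -189 and a separate hexamer at -242, and the 1 hexamer of the Tsc22d3 window begins at -185. The full element was found in 1 of the 12 member windows and in 0.00913% of all 32851 RefSeq windows of that length, 3 windows in all. A hexamer was found in 4 member windows, 3 of Sgk1 and 1 of Tsc22d3, and in 19.0% of all windows. The FoxO core TGTTTAC, searched on both strands, was in 0 member windows and in 3.65% of all windows. These matches are a description of the letters in these windows only, and elements elsewhere near the genes were not searched.

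Fbxo32 was the 1 member whose fall was called in both genotypes. It encodes atrogin-1, the substrate-binding part of a ubiquitin ligase and a standard FoxO target of wasting muscle. Its probe lies at chr15:58245533-58245592 on the minus strand of build mm7, the build the array files name for their coordinates. In Ifnar2-/- cells the level was -2.06, -2.02 and -2.53 after IFN-β, against -0.58, -0.71 and -0.92 after PBS. In wild-type cells it was -2.75, -2.68 and -2.95 after IFN-β, against -0.84, -1.37 and -0.97 after PBS. All 3 IFN-β arrays lay below all 3 PBS arrays in each genotype, as for 11.3% of all probes in Ifnar2-/- and 28.9% in wild type.

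The fall of Fbxo32 was 1.46 ± 0.18 on the log2 scale (SE) in Ifnar2-/-, 2.76-fold lower, with an adjusted p of 0.00707. In wild type the log2 difference was -1.74 ± 0.18, 3.33-fold lower, with an adjusted p of 3.60e-05. The responses differed by 0.27 (Ifnar2-/- minus wild type, 95% interval -0.30 to 0.84, adjusted p = 0.547). This interval leaves room for a smaller, equal or larger fall in Ifnar2-/-. The Ifnar2-/- log2 difference was 84.4% of the wild-type one. Within slides, where some comparisons rest on 1 array a group and none was tested, the Ifnar2-/- difference of Fbxo32 was -1.48 on slide 2 and -1.46 on slide 3, and the wild-type difference was -1.69 on slide 1. With slide as a fixed block Fbxo32 was called in both genotypes (adjusted p = 0.0212 in Ifnar2-/- and 0.00240 in wild type). Without the 4 arrays of slide 3, which leaves 1 Ifnar2-/- array a treatment, its Ifnar2-/- difference was -1.48 and was not called (adjusted p = 0.340).

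**Figure D1:**
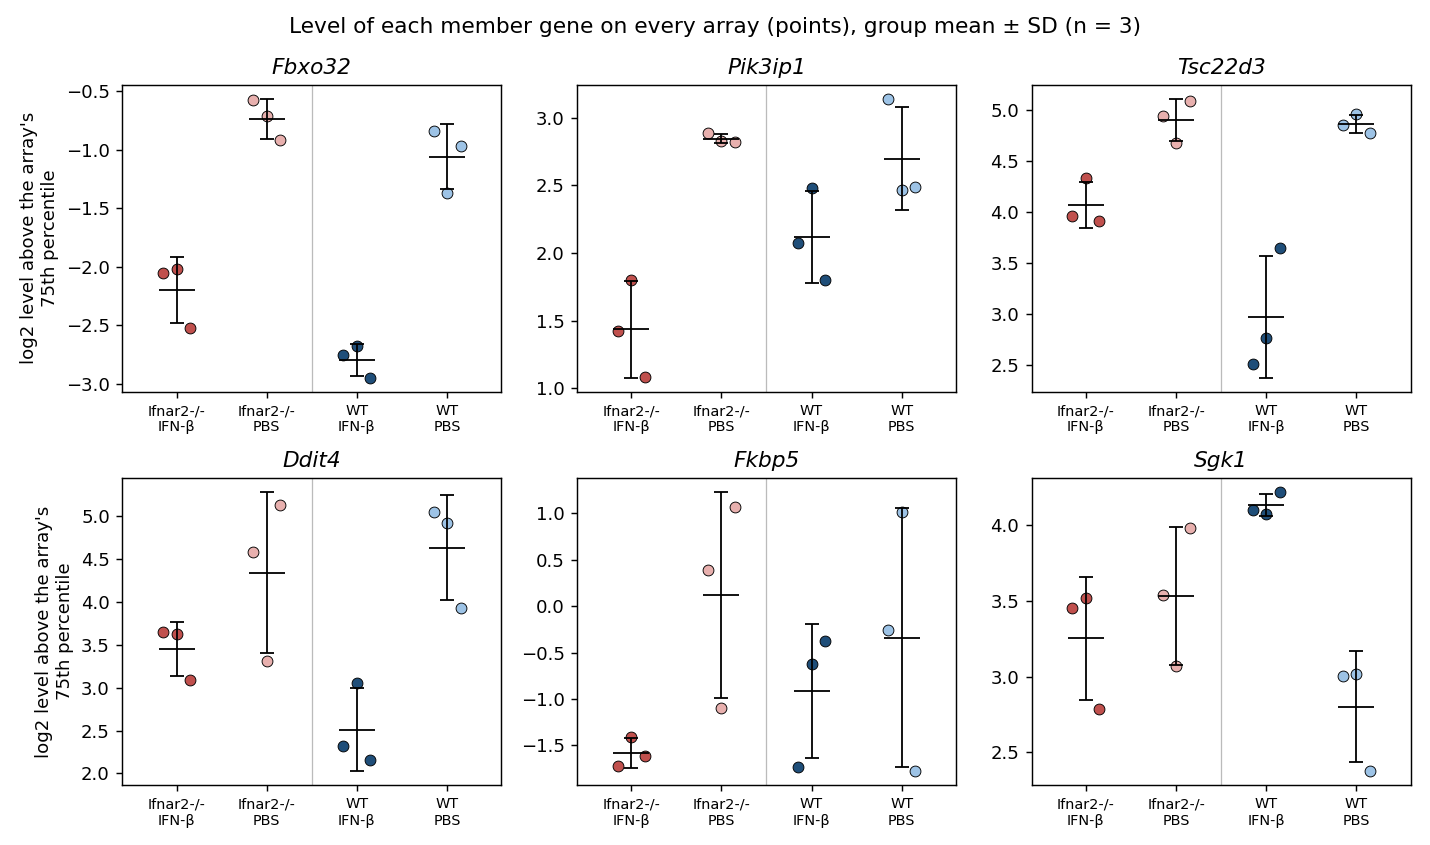
Level of each member's representative probe on every array (points), as log2 of the signal above the array's 75th percentile, with the group mean and SD (n = 3). Columns run from Ifnar2-/- with IFN-β to wild type with PBS, and each panel has its own vertical scale. Fbxo32 was lower after IFN-β in both genotypes, while Sgk1 was higher after IFN-β in wild type.

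Across the 6 members, 2 were lower (Fbxo32 and Pik3ip1) and 0 higher in Ifnar2-/- after IFN-β. Of all probes tested, 0.173% were lower and 0.942% higher in that comparison (1.11% in all). In wild type, 3 members were lower (Tsc22d3, Ddit4 and Fbxo32), 1 was higher (Sgk1) and 2 were not called (Pik3ip1 and Fkbp5), where 21.6% of all probes were lower and 18.4% higher (40% in all). The members' median log2 difference was -1.15 in Ifnar2-/- and -1.16 in wild type, against -0.02 and -0.04 over all probes. The members were chosen with earlier results of these data known, so their counts and medians beside all probes are a description. For the difference between responses 1 member was called (Sgk1, lower in Ifnar2-/-), where 9.19% of all probes were called lower and 8.54% higher (17.7% in all). After PBS 0 of 6 members differed between Ifnar2-/- and wild type at that threshold (limma), where 2.03% of all probes were lower and 2.49% higher (4.52% in all), and Sgk1 was the 1 member with an unadjusted p under 0.05 (0.0206). A fall called in both genotypes was found for 0.123% of all probes. A fall that needed Ifnar2, meaning called in wild type, not called in Ifnar2-/- and with a called difference between responses, was found for 7.94% of all probes and for 0 members.

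Pik3ip1 encodes a membrane protein that binds the catalytic subunit of PI3K and restrains it. Its brighter probe, A_51_P463428 (chr11:3294107-3294166, plus strand, mm7), had levels of 1.43, 1.80 and 1.09 in Ifnar2-/- cells after IFN-β, against 2.89, 2.83 and 2.82 after PBS. In wild-type cells the levels were 2.07, 2.48 and 1.80 after IFN-β, against 3.14, 2.47 and 2.49 after PBS. The treatments did not overlap in Ifnar2-/-, where 11.3% of all probes had every IFN-β array below every PBS array. They overlapped in wild type through 1 IFN-β array.

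The log2 difference of Pik3ip1 was -1.41 ± 0.24 in Ifnar2-/- (adjusted p = 0.0228) and -0.58 ± 0.24 in wild type (adjusted p = 0.0759). The difference between the responses was -0.83 (95% interval -1.57 to -0.08, adjusted p = 0.125), so the call in 1 genotype alone does not show that the genotypes differ. The second probe, A_52_P344152, had differences of -0.80 in Ifnar2-/- (adjusted p = 0.259) and -0.87 in wild type (adjusted p = 0.0709), neither called. The call in Ifnar2-/- was lost with the mean of both probes (-1.11, adjusted p = 0.0975), with slide as a fixed block (adjusted p = 0.0588), with no filter on dim probes (0.0662), without any one of the 3 PBS arrays (0.0749 to 0.0977) and without IFN-β array 3 (0.0635). Within slides the Ifnar2-/- difference of Pik3ip1 was -1.46 on slide 2 and -1.38 on slide 3, and the wild-type difference was -0.63 on slide 1.

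Tsc22d3 encodes GILZ, a leucine zipper protein induced by glucocorticoids that restrains NF-kB and AP-1, and FoxO3 is also known to raise it. On the brightest probe, A_51_P235821 (chrX:135259067-135259126, minus strand, mm7), the levels in Ifnar2-/- cells were 3.96, 4.33 and 3.91 after IFN-β, against 4.94, 4.68 and 5.08 after PBS. In wild-type cells they were 2.50, 2.77 and 3.64 after IFN-β, against 4.85, 4.96 and 4.77 after PBS. The treatments did not overlap in either genotype, and the 3 wild-type IFN-β arrays lay below all 9 others. The share of all probes with the latter arrangement was not counted.

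Tsc22d3 fell in wild type by 1.89 ± 0.26 on the log2 scale, 3.71-fold lower (adjusted p = 0.000202). In Ifnar2-/- the log2 difference was -0.84 ± 0.26, 1.79-fold lower and not called (adjusted p = 0.141, unadjusted p = 0.00786). The difference between responses was 1.06 ± 0.36 (95% interval 0.26 to 1.86, adjusted p = 0.0714). Tsc22d3 was thus not assigned to either class of fall. Its Ifnar2-/- log2 difference was 44.2% of the wild-type one, and 50.5% and 40.7% on the other probes.

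The other Tsc22d3 probes ran the same way. A_51_P235816 had a log2 difference of -0.72 in Ifnar2-/- (adjusted p = 0.166) and -1.43 in wild type (adjusted p = 0.000857). A_52_P600518 had -0.62 in Ifnar2-/- (adjusted p = 0.183) and -1.51 in wild type (adjusted p = 0.000300). On each of the 3 probes all IFN-β arrays lay below all PBS arrays in both genotypes, an arrangement found for 11.3% of all probes in Ifnar2-/- and 28.9% in wild type. The 3 probes lie within 1 short stretch of the X chromosome and read 1 gene, so they are not independent.

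The difference between responses of Tsc22d3 crossed the threshold in 5 of 25 other settings. It was called with quantile normalization (1.36, adjusted p = 0.0180), with no scaling between arrays (1.33, 0.0186), with slide as a fixed block (1.52, 0.0458) and with a trended, robust variance (1.06, 0.0460), and Tsc22d3 then counted as a fall that needed Ifnar2. Without wild-type IFN-β array 3, the highest of that group, the difference was 1.39 (adjusted p = 0.00390), and the Ifnar2-/- fall was then also called (adjusted p = 0.0492). Within slides the Ifnar2-/- difference of Tsc22d3 was -0.98 on slide 2 and -0.76 on slide 3, and the wild-type difference was -2.36 on slide 1.

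**Figure D2:**
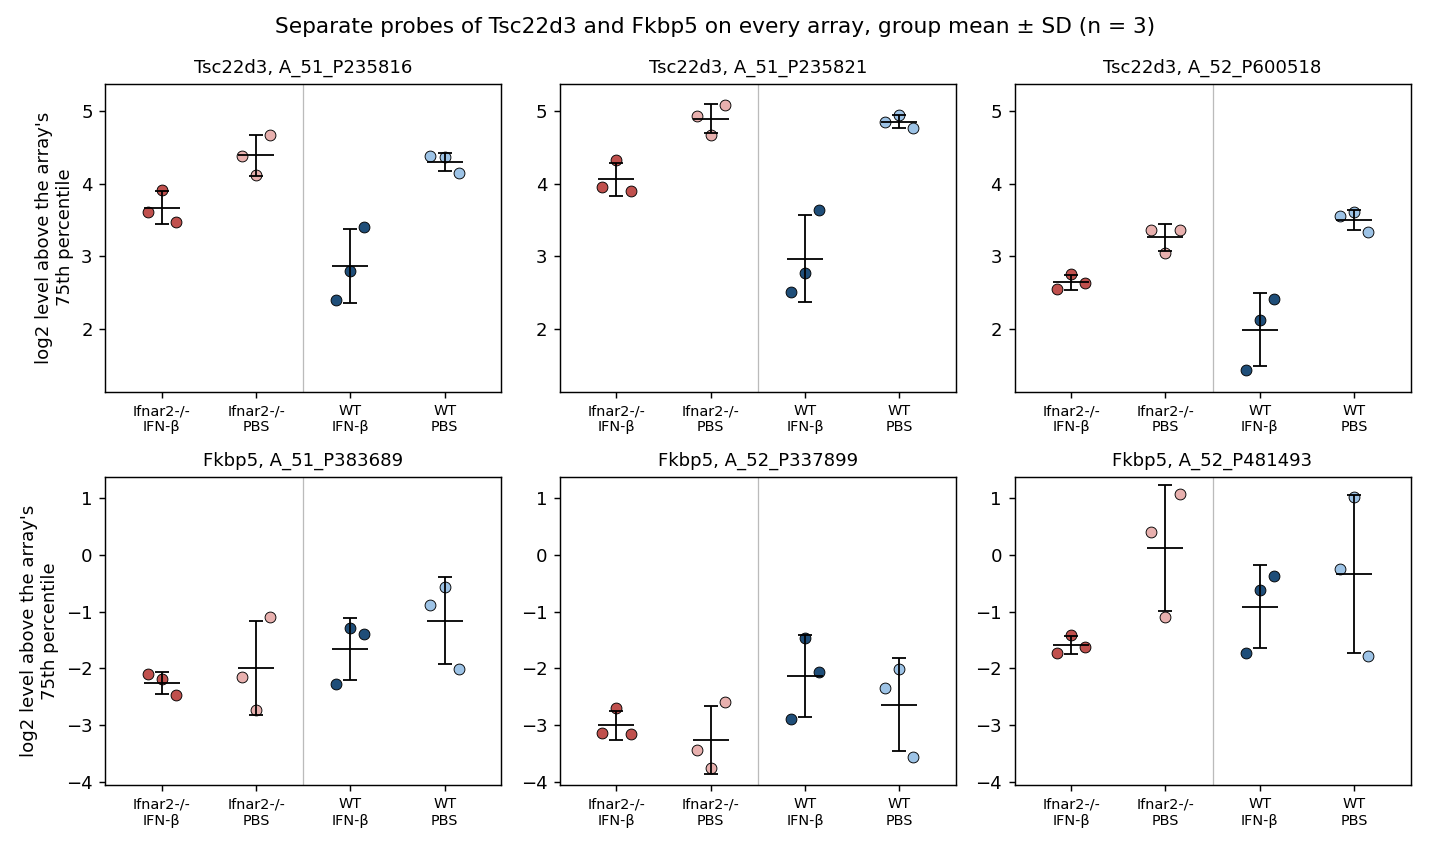
Levels of the 3 probes of Tsc22d3 (upper row) and the 3 probes of Fkbp5 (lower row) on every array, as log2 of the signal above the array's 75th percentile, with the group mean and SD (n = 3). The Tsc22d3 probes were lower after IFN-β on every array of both genotypes, and the Fkbp5 probes overlapped between treatments except for A_52_P481493 in Ifnar2-/-.

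Ddit4 encodes REDD1, which is raised by glucocorticoids, hypoxia and other stress and holds back mTORC1. Its probe (chr10:59467933-59467992, minus strand, mm7) had levels of 3.65, 3.63 and 3.08 in Ifnar2-/- cells after IFN-β, against 4.59, 3.31 and 5.14 after PBS. In wild-type cells the levels were 2.32, 3.06 and 2.15 after IFN-β, against 5.05, 4.92 and 3.93 after PBS. The treatments overlapped in Ifnar2-/-, where PBS array 2 was low. They did not overlap in wild type, where 28.9% of all probes had every IFN-β array below every PBS array.

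Ddit4 fell in wild type by 2.12 ± 0.46 on the log2 scale, 4.36-fold lower (adjusted p = 0.00382), the largest fall among the 6 representative probes. In Ifnar2-/- the difference was -0.89 ± 0.46 (adjusted p = 0.329). The difference between the responses was 1.23 ± 0.65 with a 95% interval of -0.20 to 2.66 (adjusted p = 0.235), so equal falls and a fall confined to wild type both lie inside it. Ddit4 had the second widest standard error among the representative probes. Within slides its Ifnar2-/- difference was -0.94 on slide 2 and -0.87 on slide 3, and its wild-type difference was -2.31 on slide 1.

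Fkbp5 encodes a co-chaperone that lowers the affinity of the glucocorticoid receptor for hormone and is itself raised by the receptor. The brightest of its 3 probes, A_52_P481493 (chr17:26624510-26624569, minus strand, mm7), had levels of -1.73, -1.41 and -1.62 in Ifnar2-/- cells after IFN-β, against 0.39, -1.10 and 1.06 after PBS. In wild-type cells the levels were -1.74, -0.62 and -0.38 after IFN-β, against -0.25, 1.01 and -1.77 after PBS. The PBS arrays of both genotypes were widely spread, with an SD of 1.11 in Ifnar2-/- and 1.39 in wild type.

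Fkbp5 was called in neither genotype. The log2 difference was -1.70 ± 0.69 in Ifnar2-/- (adjusted p = 0.230) and -0.57 ± 0.69 in wild type (adjusted p = 0.556). The treatments did not overlap in Ifnar2-/-, where 11.3% of all probes had every IFN-β array below every PBS array. The other probes begin at 26586393 and 26587108 on the same chromosome and build, apart from the brightest probe, and did not share its values. A_51_P383689 had differences of -0.26 in Ifnar2-/- and -0.49 in wild type, while A_52_P337899 had 0.26 and 0.50, so the sign differed between Fkbp5 probes and none was called.

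Sgk1 encodes the serum- and glucocorticoid-regulated kinase, which phosphorylates FoxO factors, and it was the 1 member that rose. Its probe (chr10:21732425-21732484, plus strand, mm7) had levels of 3.45, 3.52 and 2.79 in Ifnar2-/- cells after IFN-β, against 3.54, 3.07 and 3.99 after PBS. In wild-type cells the levels were 4.10, 4.08 and 4.22 after IFN-β, against 3.01, 3.02 and 2.38 after PBS. The treatments overlapped in Ifnar2-/-, whereas in wild type the 3 IFN-β arrays were above all 9 others, an arrangement not counted over all probes.

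Sgk1 rose in wild type by 1.33 ± 0.27 on the log2 scale, 2.52-fold (adjusted p = 0.00262). In Ifnar2-/- the difference was -0.28 ± 0.27 (adjusted p = 0.623). The difference between responses was -1.61 ± 0.38 (95% interval -2.45 to -0.77, adjusted p = 0.0145), so the rise of Sgk1 met the rule for a rise that needed Ifnar2, as did 8.78% of all probes. After PBS its level was 3.53 ± 0.46 in Ifnar2-/- and 2.80 ± 0.37 in wild type (SD, n = 3 each). The difference of 0.73 was not called (adjusted p = 0.170). All Ifnar2-/- arrays lay above all wild-type arrays there, an arrangement not counted over all probes and between arrays of different slides. The called difference between responses was lost with slide as a fixed block (-1.58, adjusted p = 0.0871) and without the arrays of slide 3 (-1.42, adjusted p = 0.0794). Within slides the Sgk1 difference was -0.09 on slide 2 and -0.37 on slide 3 in Ifnar2-/-, and 1.31 on slide 1 in wild type.

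**Figure D3:**
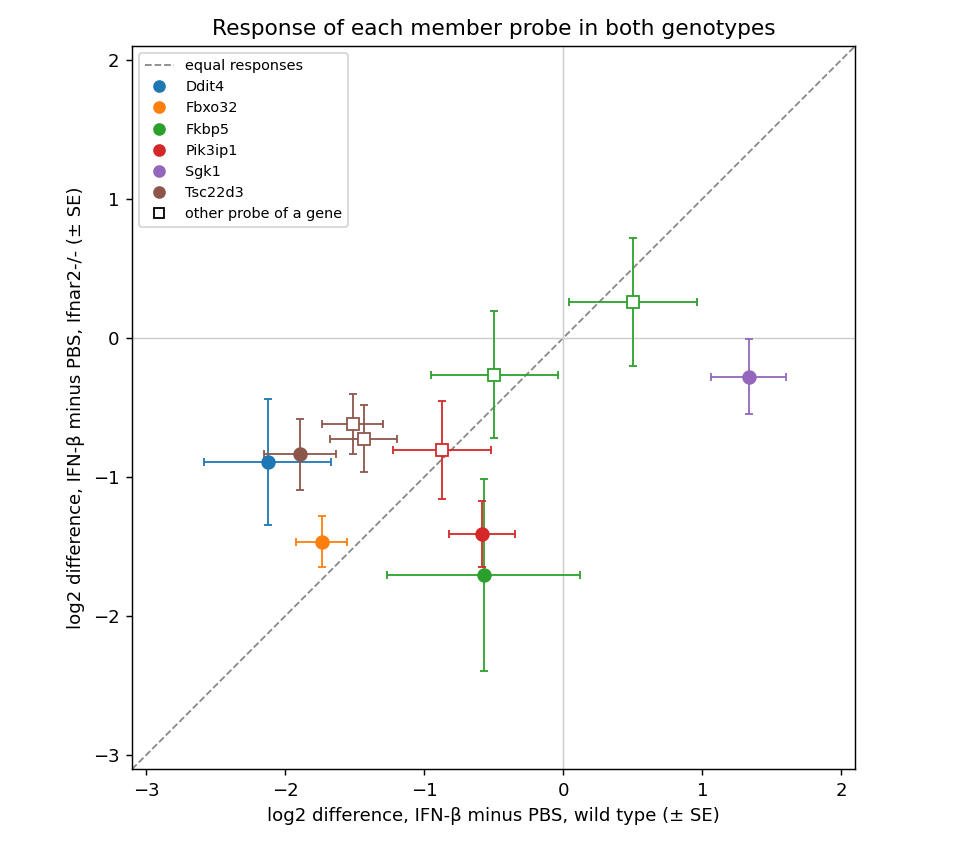
Log2 difference between IFN-β and PBS for each member probe, in wild type (horizontal axis) and in Ifnar2-/- (vertical axis), with SE from the fit. Filled circles are representative probes, open squares are other probes of the same gene, and the dashed line marks equal responses. Fbxo32 lies near the line (-1.46 in Ifnar2-/- and -1.74 in wild type), and Sgk1 lies far from it (-0.28 in Ifnar2-/- and 1.33 in wild type).

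In order of mean level, Fbxo32 ran from -2.80 in wild type with IFN-β through -2.20 in Ifnar2-/- with IFN-β and -1.06 in wild type with PBS to -0.74 in Ifnar2-/- with PBS, and the 2 PBS groups overlapped. Tsc22d3 ran from 2.97 in wild type with IFN-β through 4.07 in Ifnar2-/- with IFN-β to 4.86 in wild type and 4.90 in Ifnar2-/- with PBS, with the PBS groups again overlapping. Sgk1 ran from 2.80 in wild type with PBS through 3.25 in Ifnar2-/- with IFN-β and 3.53 in Ifnar2-/- with PBS to 4.13 in wild type with IFN-β, and Ifnar2-/- with IFN-β overlapped both of its neighbours. For Ddit4, the order was 2.51 in wild type with IFN-β, 3.45 in Ifnar2-/- with IFN-β, 4.34 in Ifnar2-/- with PBS and 4.63 in wild type with PBS, and both neighbouring pairs among the last 3 groups overlapped. Pik3ip1 ran from 1.44 in Ifnar2-/- with IFN-β through 2.12 in wild type with IFN-β and 2.70 in wild type with PBS to 2.85 in Ifnar2-/- with PBS, and the neighbouring pairs among the last 3 groups overlapped. Fkbp5 ran from -1.58 in Ifnar2-/- with IFN-β through -0.91 and -0.34 in wild type with IFN-β and PBS to 0.12 in Ifnar2-/- with PBS, and every neighbouring pair overlapped.

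Over the 12 arrays the levels of Fbxo32, Tsc22d3 and Ddit4 moved together, with Pearson r of 0.87 for Fbxo32 and Tsc22d3, 0.82 for Ddit4 and Tsc22d3, and 0.80 for Ddit4 and Fbxo32. Sgk1 ran against Tsc22d3 (r = -0.55) and against Fbxo32 (r = -0.50). These values describe arrays that share treatment groups and scaling, and they carry no test.

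Among 14178 named genes compared in the same way, the pattern of Tsc22d3 was most like those of B330016D10Rik (r = 0.97), Zfp354a (0.97) and Mlph (0.96). Ddit4 was most like Krt19 (0.93), a keratin of the lining mesothelium, Acsl1 (0.91), an enzyme that activates fatty acids, and Bmx (0.91), a tyrosine kinase. Sgk1 was most like Lpp (0.94), Dram2 (0.93) and Acyp2 (0.93). The best matches of Fkbp5 were weaker, with E230001N04Rik at 0.81, Gm5115 at 0.77 and Glg1 at 0.76. Mlph showed the widest range of the genes like Tsc22d3, with a log2 difference of -0.88 in Ifnar2-/- (adjusted p = 0.0796) and -2.36 in wild type (adjusted p = 1.08e-05).

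Other glucocorticoid-induced genes did not move as 1 group. Of 16 tested, limma called 0 lower and 1 higher in Ifnar2-/-, with 3 lower and 6 higher at an unadjusted p under 0.05. In wild type 8 were lower, 5 higher and 3 not called, where 21.6% of all probes were lower and 18.4% higher. The median was 0.12 in Ifnar2-/- and -0.60 in wild type. The falls in wild type were led by Pdk4, a kinase that shuts pyruvate out of the citrate cycle (-2.65), Dusp1, a phosphatase of MAP kinases (-1.93), and Cd163, the haemoglobin scavenger receptor of macrophages (-1.86). The rises were led by the metal-binding metallothioneins Mt2 (1.98) and Mt1 (1.91, but 0.08 and not called as the mean of its probes) and by Zfp36, which destabilises cytokine mRNAs (1.44). Cd163 was also higher in Ifnar2-/- than in wild type after PBS (2.20, adjusted p = 0.0166), between arrays of different slides. Mt2 was the 1 gene called in Ifnar2-/- after IFN-β (3.14, adjusted p = 0.0229). Mt1 had a difference of 1.38 there (adjusted p = 0.0670). The difference between responses was not called for Mt2 (adjusted p = 0.344) or Mt1 (adjusted p = 0.476). The response of Zfp36 differed between genotypes by -0.96 (adjusted p = 0.0265). The differences for Pdk4 (1.22, adjusted p = 0.295), Dusp1 (1.73, adjusted p = 0.174) and Cd163 (1.87, adjusted p = 0.0583) were not called.

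Of 27 other FoxO targets, 25 were tested. In Ifnar2-/- limma called 0 lower and 1 higher, with 8 lower and 2 higher at an unadjusted p under 0.05. In wild type 14 were lower, 7 higher and 4 not called, where 21.6% of all probes were lower and 18.4% higher. The median was -0.28 in Ifnar2-/- and -0.69 in wild type. The wild-type falls were led by Ccr7, a homing receptor of lymphocytes and dendritic cells (-2.07), S1pr1, the receptor by which lymphocytes leave tissue (-1.71), and Sesn1, a stress protein that restrains mTORC1 (-1.70). The rises were led by Tnfsf10, the death ligand TRAIL and itself a known interferon target (5.90), Cited2, a transcriptional co-regulator (1.93), and Fasl, the ligand of Fas (1.88), which was well above background on 2 of 3 Ifnar2-/- PBS arrays. Sod2, the mitochondrial superoxide dismutase, was the 1 called in Ifnar2-/- (1.47, adjusted p = 0.00184, with 1.35 in wild type), and is named for that count after its values were seen. The difference between responses was called higher in Ifnar2-/- for 5 and lower for 3 of the 25, where 8.54% of all probes were higher and 9.19% lower. It was not called for Sesn1 (-0.88 in Ifnar2-/-, adjusted p of the difference 0.251) or Fasl (0.75 in Ifnar2-/-, adjusted p of the difference 0.0768).

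In the receptor's own pathway, of 11 genes, 0 were called in Ifnar2-/- by limma, with 2 at an unadjusted p under 0.05 (Hsd11b1 and Hsp90aa1). In wild type 2 were lower, 2 higher and 7 not called, where 40% of all probes were called, and the median was 0.15. Nr3c1, the receptor, rose by 0.82 in wild type (adjusted p = 0.00144) against -0.08 in Ifnar2-/- (adjusted p = 0.831). Hsp90aa1, its chaperone, rose by 0.95 in wild type, against 0.63 in Ifnar2-/- (adjusted p = 0.183). The coactivator Ncoa2 fell by 1.20 in wild type, against a difference of -0.26 in Ifnar2-/- (adjusted p = 0.295). Hsd11b1, which regenerates active glucocorticoid, fell by 0.87 in wild type, against a difference of -0.54 in Ifnar2-/- (adjusted p = 0.217). The difference between responses was called for Nr3c1 and Ncoa2. It was not called for Hsp90aa1 (adjusted p = 0.553) or Hsd11b1 (adjusted p = 0.518).

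In the PI3K, Akt, FoxO and mTORC1 pathway 19 of 21 genes were tested. By limma 0 were called in Ifnar2-/-, with 1 at an unadjusted p under 0.05 (Pik3cg). In wild type 10 were lower, 2 higher and 7 not called (median -0.45), where 21.6% of all probes were lower and 18.4% higher. The kinase Sgk3 (1.48) and the mTORC1 activator Rheb (0.52) rose in wild type. For Rheb, 0.13 in Ifnar2-/-, the difference between responses was not called (adjusted p = 0.182). The PI3K catalytic subunits Pik3cg (-2.03) and Pik3cb (-1.12) fell. Foxo6 was not well above background on any wild-type IFN-β array and was there at least 3.31-fold lower than after PBS, the bound resting on the lowest signal well above background on each array (adjusted p = 3.68e-05). Foxo1 and Foxo3, the better known family members, had differences of -0.31 and -0.61 in wild type and were not called. They are named as main carriers of the pathway and not by the rule.

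**Figure D4:**
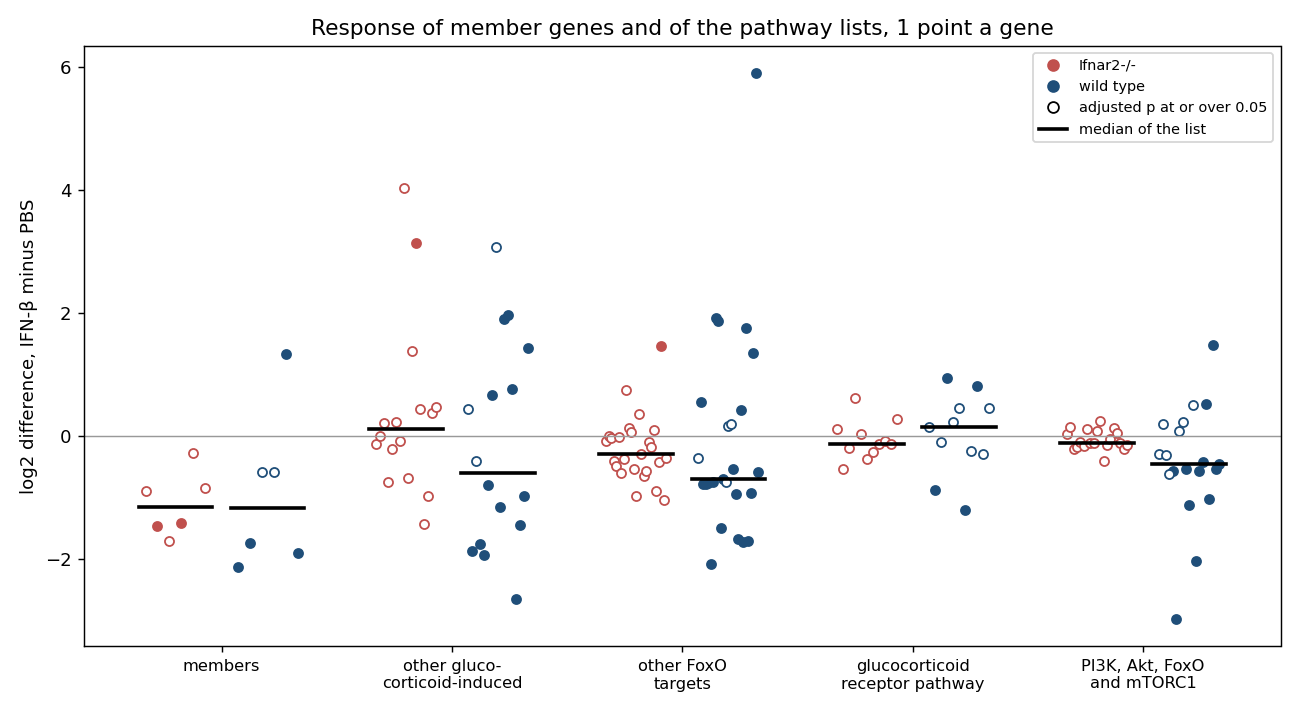
Log2 difference between IFN-β and PBS for the member genes and for 4 pathway lists, 1 point a gene, with Ifnar2-/- left of wild type in each list. Filled points were called, open points had an adjusted p at or over 0.05, and black lines are list medians. Members had medians of -1.15 in Ifnar2-/- and -1.16 in wild type, and the other lists stayed nearer 0 in Ifnar2-/-. Members and lists were chosen with earlier results of these data known, so this is a description.

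Markers of cell types moved beside these results. For the counts below, the shares of all probes called were 0.173% lower and 0.942% higher in Ifnar2-/-. In wild type they were 21.6% lower and 18.4% higher. Of 13 T and NK cell markers, 12 of which were well above background on all arrays, limma called 0 in Ifnar2-/-, with 3 lower at an unadjusted p under 0.05, and 8 were lower in wild type. Their summed level, on the linear scale in units of the 75th percentile, was 8.16 to 10.9 in Ifnar2-/- with IFN-β, 9.59 to 16.5 in Ifnar2-/- with PBS, 3.84 to 4.94 in wild type with IFN-β and 8.68 to 9.01 in wild type with PBS. Every wild-type IFN-β array lay below every wild-type PBS array, as was the case for Tsc22d3, Ddit4, Fbxo32 and 28.9% of all probes.

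Of 12 B cell markers, limma called 0 in Ifnar2-/-, also 0 at an unadjusted p under 0.05, and 5 were lower and 0 higher in wild type (median -0.67). Their summed level was 197 to 224 in Ifnar2-/- with IFN-β, 203 to 281 in Ifnar2-/- with PBS, 212 to 265 in wild type with IFN-β and 219 to 321 in wild type with PBS, with an overlap of treatments in both genotypes. Of 8 mast cell markers, limma called 0 in Ifnar2-/-, also 0 at an unadjusted p under 0.05, and 3 were lower and 1 higher in wild type (median -0.36). Their summed level was 292 to 329 in Ifnar2-/- with IFN-β, 304 to 365 in Ifnar2-/- with PBS, 177 to 203 in wild type with IFN-β and 201 to 283 in wild type with PBS, so the wild-type ranges overlapped and both Ifnar2-/- groups lay above them. Of 10 macrophage markers, limma called 0 in Ifnar2-/-, also 0 at an unadjusted p under 0.05, and 3 were lower and 2 higher in wild type. Their summed level was 701 to 808 in Ifnar2-/- with IFN-β, 615 to 781 in Ifnar2-/- with PBS, 680 to 767 in wild type with IFN-β and 551 to 772 in wild type with PBS. Of 7 dendritic cell markers, limma called 1 higher in Ifnar2-/-, with 3 higher at an unadjusted p under 0.05, and 2 were lower and 1 higher in wild type. Their summed level in Ifnar2-/- was 1.87 to 3.54 with IFN-β and 0.995 to 1.30 with PBS. In wild type it was 1.83 to 3.76 with IFN-β and 1.57 to 2.35 with PBS. Of 4 eosinophil markers limma called 0 in either genotype, also 0 at an unadjusted p under 0.05. Their summed level in Ifnar2-/- was 1.83 to 2.48 with IFN-β and 1.61 to 3.03 with PBS. In wild type it was 3.50 to 7.98 with IFN-β and 3.29 to 5.47 with PBS.

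The summed level of 7 mesothelial markers was 1.15 to 1.52 in Ifnar2-/- with IFN-β, 1.89 to 2.26 in Ifnar2-/- with PBS, 1.02 to 1.22 in wild type with IFN-β and 1.84 to 2.22 in wild type with PBS. It was lower after IFN-β without overlap in both genotypes, as were Fbxo32 and Tsc22d3. Every IFN-β array lay below every PBS array for 11.3% of all probes in Ifnar2-/- and 28.9% in wild type. The share with this arrangement in both genotypes was not counted. Of the 7 mesothelial markers, of which 4 were well above background on all arrays, limma called 0 in Ifnar2-/-, with 4 lower at an unadjusted p under 0.05, and 4 were lower in wild type. The summed level of 7 monocyte markers was 152 to 172 in Ifnar2-/- with IFN-β, 162 to 181 in Ifnar2-/- with PBS, 399 to 462 in wild type with IFN-β and 131 to 188 in wild type with PBS, highest in wild type with IFN-β, as was Sgk1. Of these 7, limma called 0 in Ifnar2-/-, also 0 at an unadjusted p under 0.05, and 5 were higher in wild type. The summed level of 8 neutrophil markers was 21.4 to 199.6 in Ifnar2-/- with IFN-β, 12.4 to 17.3 in Ifnar2-/- with PBS, 16.8 to 24.2 in wild type with IFN-β and 10.1 to 108 in wild type with PBS. Of these 8, limma called 0 in Ifnar2-/-, with 3 higher at an unadjusted p under 0.05, and 1 was lower in wild type. Ifnar2-/- IFN-β array 3 held the highest neutrophil sum and the lowest level of 5 of the 6 members in its group. Without that array Fbxo32 was still called in Ifnar2-/- (-1.30, adjusted p = 0.0106). What these marker shifts contribute to the member results was not tested.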

How the data were processed

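RNA from peritoneal exudate cells was labelled with Cy3 and hybridised to 12 Agilent arrays of mouse genes. Scans were read by Agilent's Feature Extraction, version 9.5.3.1, per the submitters' processing notes and the file headers. The deposited processed signal is a linear intensity that the authors' software background-subtracted and detrended within each array and did not normalize between arrays, per the file headers. The deposited value table held the same intensity values (0 of 45018 differed on any array), with column medians of 50.7 to 77.6. Other deposited columns mark, per spot, signal well above background, saturation and outliers.

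Outlier spots were left out (84 to 167 an array), spots of a probe were averaged, and log2 of the signal minus the array's 75th percentile (660 to 968) was used, computed here from the deposited intensity. A probe was kept if some group had it well above background on each of its arrays and it had at least 6 values. Names came from RefSeq tables by accession (22951 probes), symbol (6659) or older symbol (3109), and 8455 kept the file's name. All arrays entered 1 limma 3.58.1 fit (R 4.3.3) with 4 group means and 8 residual degrees of freedom. The tests are two-sided, with Benjamini-Hochberg adjustment within each comparison, and the fit was tested on simulated data. The simulated arrays had independent noise, no slide effect and changes in wild type with IFN-β only. They cannot show how the fit behaves under the slide layout of these data. The number of arrays limits the precision. Per the series' design text each sample came from different mice.

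The members, gene lists and rules were chosen with earlier results of these data known. All member probes are named. From each pathway list the up to 3 largest called rises and up to 3 largest called falls in wild type are named, and for 4 members the 3 genes of highest r. One gene of these lists is not reported here and was left out of the list counts. Alternatives were normexp (offset 50), quantile, median or no scaling, other filters, other uses of a gene's probes, slide or replicate number as a block, another variance model and each array left out. Leaving out slide 3 was chosen after seeing the data.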

Additional observations from a re-analysis of the deposited data

Results flagged for a closer look

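The response to IFN-β differed between the genotypes by the test of the difference itself (limma, Ifnar2-/- minus wild type, log2 scale, adjusted over all probes) for 1 member and 11 of the genes named from the pathway lists. For Sgk1 the difference was -1.61 ± 0.38 (SE, adjusted p = 0.0145), with -0.28 in Ifnar2-/- and 1.33 in wild type. Genes with a lower response in Ifnar2-/- were Tnfsf10 (-6.94), Cited2 (-2.29), Sgk3 (-1.58), Zfp36 (-0.96) and the receptor gene Nr3c1 (-0.90). Genes with a higher response, each of which fell in wild type, were Foxo6 (2.81), Ccr7 (2.05), Pik3cg (1.62), S1pr1 (1.53), Pik3cb (1.21) and Ncoa2 (0.94). The value of Foxo6 rests on wild-type IFN-β signals that were not well above background. Adjusted p ran from 5.61e-07 for Tnfsf10 to 0.0265 for Zfp36. These pathway genes were chosen by their size in wild type, which is part of this difference, so their values are a description. Groups of 3 arrays were too small for a test of outlying arrays.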

How the results depend on the processing

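Results were recomputed under 25 other settings, 12 of them leaving out 1 array. Over these the wild-type log2 difference kept its direction and its call for Fbxo32 (-1.90 to -1.34), Tsc22d3 (-2.36 to -1.61), Ddit4 (-2.47 to -1.92) and Sgk1 (0.98 to 1.44). The highest adjusted p (limma) over the settings came near the threshold for Sgk1 (0.0498) and Ddit4 (0.0401). Of 830 comparisons of member results with an alternative, 789 kept direction and side of the threshold. For the members' other probes, these 830 leave out the difference between responses and the comparison after PBS. Among those left out, the difference of Tsc22d3 A_52_P600518 (0.90, adjusted p = 0.0706 by limma) was called under normexp, quantile normalization, no scaling, slide as a fixed block and trended variance. Member genes with a fall shared by both genotypes numbered 1, and 2 under normexp, quantile normalization or no scaling (Fbxo32 and Pik3ip1), 0 without slide 3, and 1 to 2 with 1 array left out. Member genes with a called difference between responses numbered 1, and 2 under quantile, no scaling or trended variance, 0 without slide 3, and 1 to 2 with 1 array left out. Member genes with a fall that needed Ifnar2 numbered 0, and 1 (Tsc22d3) under quantile, no scaling, slide as a fixed block or trended variance. Member genes called in Ifnar2-/- numbered 2, and 1 with no filter, the mean of probes or the slide block, 0 without slide 3, and 1 to 3 with 1 array left out. The cause was not tested, except that leaving out slide 3 leaves 1 Ifnar2-/- array a treatment, assumed to vary like the other groups.

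Results that reversed were not called in the first place. Tsc22d3 in Ifnar2-/- against wild type after PBS (0.04) was -0.067 with quantile, -0.036 with the mean of probes, -0.69 with the slide block, and -0.050 to 0.15 with 1 array left out. The same comparison of Fkbp5 (0.46) was -0.33 with the mean of probes, -0.71 with the slide block, and -0.26 to 1.13 with 1 array left out. The wild-type response of Fkbp5 was -1.29 to 0.10 with 1 array left out, the last value without wild-type PBS array 2. For Fkbp5 A_52_P337899 the wild-type difference was -0.26 with the slide block, and for A_51_P383689 the Ifnar2-/- difference was 0.042 without slide 3 and -0.63 to 0.18 with 1 array left out, the last value without Ifnar2-/- PBS array 3. Ddit4 after PBS (-0.29) was -0.69 to 0.23 with 1 array left out, the last value without Ifnar2-/- PBS array 2.

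Over all probes 309 were called in Ifnar2-/- (15 to 503 over settings), 11085 in wild type (6861 to 12257), 4915 for the difference (2168 to 6166) and 1253 after PBS (57 to 1802). Of those called, 46.0% were higher in wild type, but 31.7% with no scaling, where the median of all probes was -0.21. In Ifnar2-/- it was 84.5%, and 70.0% with normexp. For the difference it was 48.2%, and 71.6% with no scaling. Wild-type calls lost among named genes were Hsp90aa1 and Rheb (quantile), Rheb (no scaling), Mt1 (mean of probes), Dusp1 (without wild-type PBS array 2 or IFN-β array 1 or 2) and, with slide as a fixed block, Hsd11b1, Hsp90aa1, Mt2, Pdk4 and Rheb. Slide as a random block had a consensus correlation of -0.05, a single value over all probes. It does not exclude a slide effect in some groups.

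Replicate numbers are shared by the groups, and the replicate block changed no member call (Fbxo32 in Ifnar2-/- -1.46, adjusted p = 0.0107, and Sgk1 difference -1.61, adjusted p = 0.0293). Of 18 same-numbered pairs 4 had deviations correlated over 0.1 (-0.13 to 0.49), and of 36 others 7, so the numbers were not taken as pairs. Among Ifnar2-/- arrays of opposite treatment, deviations correlated at 0.09 to 0.49 within a slide and at -0.38 to -0.19 across slides. Among wild-type arrays the values were -0.03 to 0.04 within a slide and -0.12 to 0.15 across slides. The cause was not tested. Slide 3 had a higher floor of signals well above background (-5.46 to -5.02) than slides 1 and 2 (-6.66 to -6.07), and all 11 member probes tested were well above background on every array.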
